A study of Mus musculus with 9 samples.

Results

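Glycolysis and the pentose phosphate pathway are the 2 cytosolic routes by which a cell breaks down glucose 6-phosphate, and their enzymes were followed through the conversion of mouse fat precursors into beige fat cells. The genes were chosen by symbol: 34 symbols that cover glucose uptake, glycolysis, lactate handling and the pentose phosphate pathway were looked up in the deposited table of ribosome footprint counts. They matched 35 genes of 55359, because the symbol Aldoa stands on 2 Ensembl genes, and all 35 were among the 14714 genes with enough counts to be tested. Of these 35, 27 belong to glycolysis and lactate handling and 8 to the pentose phosphate pathway.

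Ribo-seq sequences the stretches of mRNA covered by ribosomes, so a gene's count follows both how much of its mRNA is present and how many ribosomes sit on it. Matched RNA levels were not analysed here. The precursors came from inguinal white fat, a subcutaneous depot, and were studied as 3 groups of 3 libraries: not induced (day 0), and 4 or 8 days into differentiation. Both differentiated groups had received induction medium for 2 days. It held dexamethasone (a glucocorticoid), 3-isobutyl-1-methylxanthine (a phosphodiesterase inhibitor), indomethacin, insulin, 3,3′,5-triiodo-L-thyronine (a thyroid hormone) and rosiglitazone (a PPARγ agonist). Maintenance medium then followed, without the dexamethasone, the 3-isobutyl-1-methylxanthine and the indomethacin. The day 0 cells are labelled as untreated, and all groups are primary cells in culture for which the labels state no mouse strain, sex or age.

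Glycolysis splits glucose into pyruvate and yields ATP, and lactate dehydrogenase converts pyruvate and lactate into each other while recycling NADH. The pentose phosphate pathway takes glucose 6-phosphate away from glycolysis. Its oxidative branch makes NADPH, which fat cells need for fatty acid synthesis, and its non-oxidative branch shuffles sugar phosphates between ribose 5-phosphate and glycolytic intermediates. White fat cells also feed glycolytic glycerol 3-phosphate into triglycerides, and beige and brown fat cells are known to take up glucose and to both release and burn lactate.

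Libraries held 30823028 to 38994892 counts. Summed levels of 7 preadipocyte markers were 3163 to 3261 CPM at day 0, 973 to 2192 CPM at day 4 and 702 to 1010 CPM at day 8. CPM are counts scaled to a common library size with TMM, a scaling that assumes most genes do not change. Most of the preadipocyte sum at day 0 was Pdgfrb, Thy1 and Pdgfra. At day 4 Pdgfrb and Thy1 lay below all day 0 libraries, and Pdgfra, Ly6a and Dpp4 overlapped them. Cd34 (12.6 to 21.6 CPM, beside 2.45 to 8.34 CPM at day 0) and Dlk1 (11.3 to 17.3 CPM, beside 4.86 to 9.52 CPM) lay above them. Sums of 7 adipocyte markers were 1350 to 1897 CPM, 44982 to 66828 CPM and 60665 to 62805 CPM at days 0, 4 and 8, and those of 6 beige or brown fat markers were 3.12 to 3.72 CPM, 171 to 288 CPM and 801 to 1388 CPM. A library stood on the day 0 side of its group if lowest for a fitted rise over day 0, or highest for a fall. It could then also lie past the day 0 level. Day 4 replicate 2 stood on that side in 64.1% of all tested genes, and day 8 replicate 3 in 53.7%. Counts of called members, and member calls that change when these libraries are left out, are given both ways. Counts of the further pathway genes are given with all libraries only. In such bulk libraries, fewer cells of a type and less RNA per cell cannot be told apart. The labels do not say whether the replicates were separate cultures or animals, so a p-value reflects the spread among these 9 libraries, which may be technical.

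At day 8 nearly the whole set carried more footprints than at day 0. In edgeR's quasi-likelihood test with Benjamini-Hochberg adjustment over all tested genes, 32 of 35 genes rose, 2 fell (the enolases Eno2 and Eno3) and 1 was not called (the lactate carrier Slc16a3). That comparison called 67.7% of all tested genes, 34.2% as higher and 33.5% as lower. The median log2 fold change was 2.04 over the 35 genes and -0.01 over all tested genes. At day 4, 26 genes were higher than at day 0, the same 2 enolases were lower and 7 were not called, against a background of 58.2% called, 29.8% as higher and 28.4% as lower. The median was 1.28 over the 35 genes, beside -0.02 over all tested genes. Most tested genes were called in both comparisons, which puts the assumption of TMM in doubt. The fold changes then rest on rises and falls over all genes being balanced. The CPM of the 3 libraries did not overlap between groups for 34 of the 35 genes at day 8 against day 0 (32 higher and 2 lower, beside 37.8% and 38.2% of all tested genes). At day 4 against day 0 this held for 27 (24 higher and 3 lower, beside 32% and 32.8%).

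From day 4 to day 8 the picture was mixed: 9 genes were higher at day 8 than at day 4, 2 were lower and 24 were not called, in a comparison that called 31.8% of all genes, 14.7% as higher and 17.1% as lower. The genes that rose were both glucose carriers (Slc2a1, Slc2a3), Hk1, the 3 phosphofructokinases (Pfkl, Pfkm, Pfkp), Aldoc, the second Aldoa gene and the lactate carrier Slc16a1, and those that fell were Eno3 and H6pd. The libraries of both days did not overlap for 17 higher and 3 lower genes, beside 22.2% and 23% of all tested genes. When day 4 replicate 2 and day 8 replicate 3 were left out, the same comparison gave 14 higher and 5 lower genes, against a background of 36.5% called, 16.6% as higher and 19.9% as lower. In that fit 28 genes were higher and 2 lower at day 4 against day 0 (background 66.6% called, 33.3% as higher and 33.3% as lower). At day 8 against day 0 it gave 32 higher and 2 lower (70.9% called, 35.6% as higher and 35.2% as lower). Day 4 and day 8 were compared with the same day 0 libraries, so both comparisons share their baseline.

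**Figure D1:**
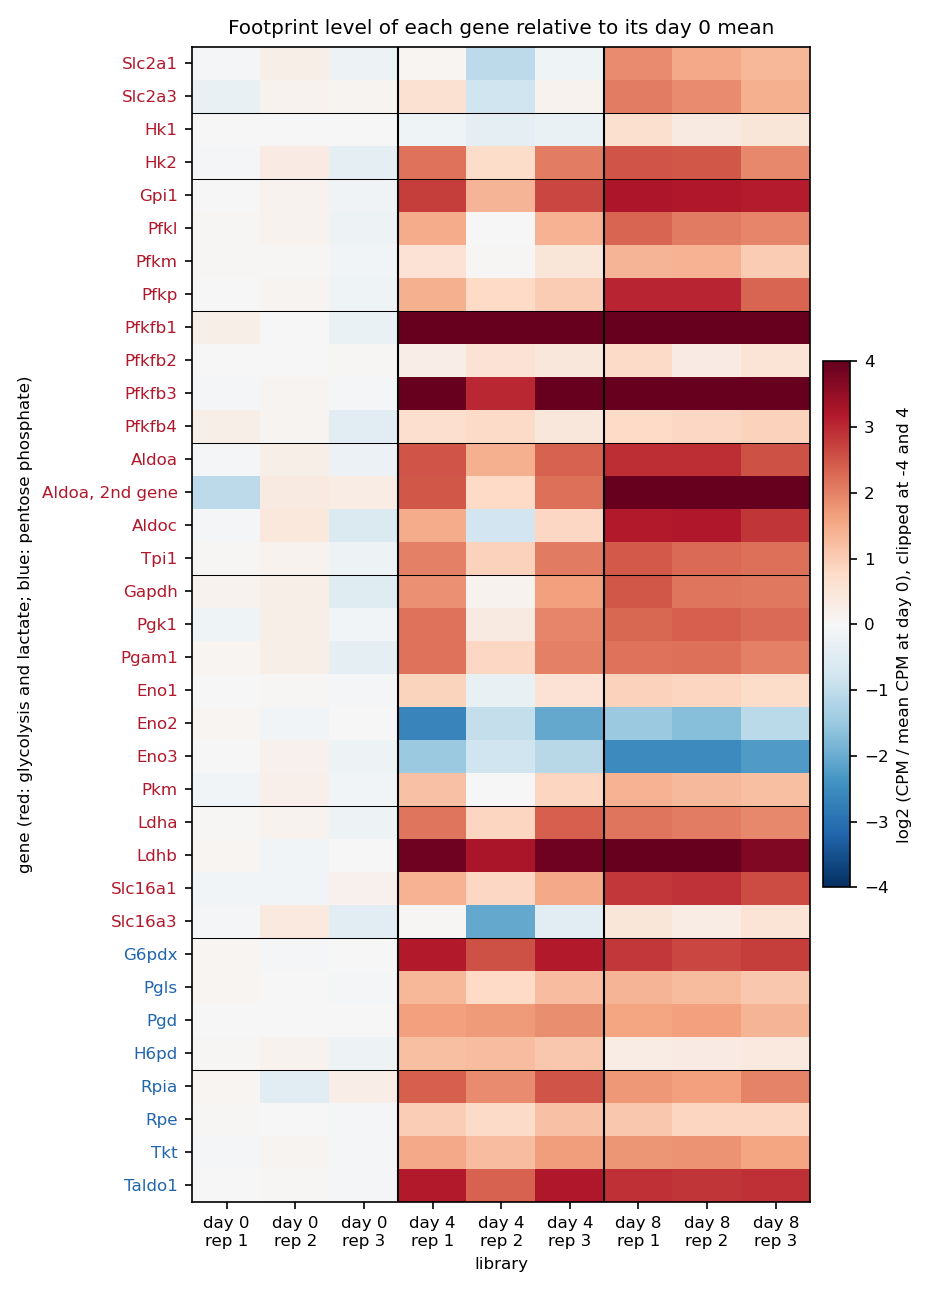
Footprint level of each of the 35 genes (rows, ordered by role; red names are glycolysis and lactate genes, blue names pentose phosphate genes) in each of the 9 libraries (columns, days 0, 4 and 8 from left to right), as log2 of CPM over the gene's mean CPM at day 0, with colours clipped at -4 and 4. Most rows turn red by day 4 and more so by day 8, Eno2 and Eno3 turn blue, and day 4 replicate 2 is paler than the other day 4 libraries in most glycolysis rows.

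The promoters of 6 members are printed because they belong to the isozyme pairs and branch points that the results below turn on: Hk2 beside Hk1, Ldha beside Ldhb, and the regulators Pfkfb3 and G6pdx. Each is the window of 250 bases before the first listed transcript start, from RefSeq on the GRCm38.p6 assembly, an earlier build than the GRCm39 used for counting, read 5′ to 3′ along the gene. Capitals mark ACGTG on either strand, the core letters of the sites that HIF and bHLH factors such as MYC and ChREBP are known to bind.
Hk2, chr6:82774455-82774704, minus strand: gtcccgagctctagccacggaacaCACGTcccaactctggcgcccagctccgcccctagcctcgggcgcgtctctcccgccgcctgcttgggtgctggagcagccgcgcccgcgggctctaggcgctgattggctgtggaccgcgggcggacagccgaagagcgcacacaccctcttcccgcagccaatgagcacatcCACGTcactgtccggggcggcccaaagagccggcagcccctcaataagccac
Hk1, chr10:62379909-62380158, minus strand: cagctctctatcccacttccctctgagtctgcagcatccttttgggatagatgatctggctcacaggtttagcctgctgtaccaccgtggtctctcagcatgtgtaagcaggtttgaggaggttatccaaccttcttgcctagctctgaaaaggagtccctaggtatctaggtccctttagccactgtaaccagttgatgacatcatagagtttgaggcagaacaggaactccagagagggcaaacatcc
Ldha, chr7:46845554-46845803, plus strand: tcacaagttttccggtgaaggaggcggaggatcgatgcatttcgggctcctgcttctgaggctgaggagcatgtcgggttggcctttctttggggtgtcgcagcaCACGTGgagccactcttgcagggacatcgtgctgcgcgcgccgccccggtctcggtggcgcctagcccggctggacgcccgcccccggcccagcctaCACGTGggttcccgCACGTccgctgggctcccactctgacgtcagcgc
Ldhb, chr6:142507958-142508207, minus strand: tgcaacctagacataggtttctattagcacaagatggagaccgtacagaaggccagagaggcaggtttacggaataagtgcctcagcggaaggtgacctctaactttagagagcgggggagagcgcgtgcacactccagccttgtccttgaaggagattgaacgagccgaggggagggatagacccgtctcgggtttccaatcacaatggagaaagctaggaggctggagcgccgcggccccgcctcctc
Pfkfb3, chr2:11553930-11554179, minus strand: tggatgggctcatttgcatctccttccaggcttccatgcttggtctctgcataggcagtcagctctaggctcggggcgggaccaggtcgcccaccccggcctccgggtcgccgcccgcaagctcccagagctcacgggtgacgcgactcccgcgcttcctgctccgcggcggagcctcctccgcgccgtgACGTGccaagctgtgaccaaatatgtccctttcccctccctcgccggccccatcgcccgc
G6pdx, chrX:74428881-74429130, minus strand: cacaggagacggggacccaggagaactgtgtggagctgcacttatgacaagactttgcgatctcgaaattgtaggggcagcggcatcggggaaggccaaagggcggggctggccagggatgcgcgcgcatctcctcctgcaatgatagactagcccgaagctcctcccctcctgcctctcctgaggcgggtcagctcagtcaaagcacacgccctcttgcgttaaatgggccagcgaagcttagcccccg
The letters ACGTG stood on 1 or the other strand in Hk2 (2 places), Ldha (3 places) and Pfkfb3 (1 place) and in none of the Hk1, Ldhb and G6pdx windows shown. Over the members, 12 of 25 glycolysis and lactate symbols with a window held it in at least 1 window, namely Slc2a1, Hk2, Pfkm, Pfkfb2, Pfkfb3, Aldoa, Pgk1, Pgam1, Pkm, Ldha, Slc16a1 and Slc16a3, and 0 of 8 pentose phosphate symbols did. Many glycolysis and lactate symbols had more than 1 window, while of the pentose phosphate symbols only Pgd did. The counts by symbol are therefore not on equal terms, and no share by symbol was computed over all genes. Counted by window, 31.4% of 51 member windows held ACGTG, beside 16.6% of 32851 windows of all genes. The longer palindrome CACGTG, which contains it, was in 9.8% of the member windows and 6.02% of all windows. The GC box GGGCGG was in 52.9% of member windows and 32.7% of all, and AGGTCA, the core letters of nuclear receptor sites, in 17.6% and 14.0%, each searched on both strands. Such matches are letters in a window and were not tested for binding.

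Both facilitative glucose carriers on the list were not called at day 4 and rose afterwards. Slc2a1 encodes GLUT1, the carrier of basal glucose uptake, and had 209, 259 and 192 CPM at day 0, 231, 107 and 196 CPM at day 4 and 807, 630.2 and 548 CPM at day 8. Its day 4 libraries overlapped those of day 0, and all day 8 libraries stood above both. The log2 fold change was 1.59 ± 0.27 (SE) at day 8 against day 0 (edgeR adjusted p = 4.8e-04) and 1.89 ± 0.27 at day 8 against day 4 (edgeR adjusted p = 0.0012). Day 4 against day 0 gave -0.30 ± 0.26 (edgeR adjusted p = 0.34). Slc2a3 encodes GLUT3, known as the high-affinity carrier of neurons. It had 6.76, 9.16 and 8.92 CPM at day 0, 12.8, 4.79 and 9.05 CPM at day 4 and 34.5, 30.5 and 22.3 CPM at day 8. Its day 4 libraries spanned the day 0 range, and those of day 8 lay above both days. Its rise at day 8 was 1.81 ± 0.31 over day 0 on the log2 scale. The ratio of both carriers was compared within each library. Slc2a1 counts per 100 Slc2a3 counts averaged 2690.0 ± 483 at day 0, 2072 ± 233 at day 4 and 2287 ± 202 at day 8 (SD, n = 3 each). An exact permutation test over the 3 groups did not call this ratio (adjusted p = 0.175 over 12 pairs). The 12 pairs were chosen with earlier results of these data known, and those of the phosphofructokinases share genes. Their p-values are therefore descriptive.

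Hexokinases trap glucose as glucose 6-phosphate, the point at which glycolysis and the pentose phosphate pathway divide. Hk2, the insulin-responsive form of fat and muscle, had 112, 144 and 90.4 CPM at day 0, 524, 193 and 477 CPM at day 4 and 658, 643 and 437 CPM at day 8. Every later library exceeded every day 0 library, day 4 replicate 2 by the least. Its log2 fold change was 1.79 ± 0.35 at day 4 (edgeR adjusted p = 0.0016) and 2.33 ± 0.35 at day 8 (edgeR adjusted p = 2.5e-04), both against day 0. Hk1, the widely expressed form, had 196, 200.1 and 199 CPM at day 0, 177, 154 and 165 CPM at day 4 and 311, 256 and 277 CPM at day 8. Its day 4 libraries lay below all day 0 libraries, with a log2 difference of -0.26 ± 0.11 that was not called (edgeR adjusted p = 0.057). That difference was called as lower with library totals, with upper-quartile scaling, with DESeq2 and with limma-voom. At day 8 Hk1 rose by 0.50 ± 0.11 over day 0 (edgeR adjusted p = 0.0021). Hk2 counts per 100 Hk1 counts were 57.0, 72.0 and 45.4 at day 0, 296, 125 and 289 at day 4, and 212, 252 and 158 at day 8. The balance thus lay further toward Hk2 at both later days, whose libraries overlapped. The ratio was called over the 3 groups (exact permutation test, adjusted p = 0.0482 over 12 pairs), but lost the call when any 1 library other than day 4 replicate 2 was left out.

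Glucose 6-phosphate isomerase and the phosphofructokinases carry sugar past the committed step of glycolysis, and all 4 genes rose by day 4 and had higher means still at day 8. Gpi1, the isomerase, changed most in this group, with 228, 257 and 207 CPM at day 0, 1574, 589.8 and 1480.0 CPM at day 4 and 2184, 2130.5 and 2024 CPM at day 8. The day 8 libraries lay close together and above all others, for a log2 fold change of 3.19 ± 0.33 against day 0 (edgeR adjusted p = 2.2e-05). Its step from day 4 to day 8 (0.80 ± 0.30, edgeR adjusted p = 0.069) was not called with all libraries. It was called in 6 of 18 alternatives, among them the fit without day 4 replicate 2. Pfkp, the platelet-type isoform, had 98.5, 106 and 86.4 CPM at day 0, 257, 168 and 197 CPM at day 4 and 797, 794 and 489 CPM at day 8. The groups did not overlap at either step, and day 8 was 1.74 ± 0.22 above day 4 on the log2 scale (edgeR adjusted p = 6.9e-04). Pfkl, the liver-type isoform, had 279, 302 and 235 CPM at day 0, 759, 269.6 and 717 CPM at day 4 and 1369.8, 1146 and 1052 CPM at day 8. Day 4 replicate 2 fell within the day 0 range for this gene. Its day 4 rise of 1.10 ± 0.32 (edgeR adjusted p = 0.015) lost the call without day 0 replicate 3, day 4 replicate 1 or day 4 replicate 3, and its step from day 4 to day 8 lost it in 6 of 18 alternatives. Pfkm, the muscle-type isoform, had 59.2, 59.8 and 53.5 CPM at day 0, 85.7, 59.9 and 81.2 CPM at day 4 and 147, 152 and 116 CPM at day 8. This was the smallest move of the 3 isoforms: 0.40 ± 0.15 at day 4 (edgeR adjusted p = 0.048, lost in 12 of 18 alternatives) and 1.27 ± 0.15 at day 8 (edgeR adjusted p = 6.4e-05), both against day 0.

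The balance among phosphofructokinase isoforms shifted toward Pfkp relative to Pfkm. Counts of Pfkp per 100 counts of Pfkm were 167, 177 and 161 at day 0, 300.2, 281 and 243 at day 4 and 542, 523 and 422 at day 8, with no overlap between any 2 days (exact permutation test, p = 0.00357, adjusted p = 0.0107 over 12 pairs). That p is the smallest that 1680 arrangements can give. Pfkl per 100 Pfkm averaged 472 ± 33.5, 739 ± 250.3 and 866 ± 96.3 at days 0, 4 and 8 (SD, n = 3 each). Pfkp per 100 Pfkl averaged 35.7 ± 0.982, 41.3 ± 18.6 and 58.0 ± 11.4 on the same days. These 2 ratios were not called with all libraries (exact permutation test, adjusted p = 0.124 and 0.189), and both were called without day 4 replicate 2, the library in which Pfkl stayed at its day 0 level. No coding lengths were at hand, so counts of different genes are compared only as ratios that change between days, not as levels.

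Fructose 2,6-bisphosphate is the strongest known activator of phosphofructokinase, and the PFKFB enzymes make and degrade it. At day 4 the 2 largest fitted rises of all members, Pfkfb1 and Pfkfb3, were in this group. At day 8 Pfkfb1 had the largest, followed by the second Aldoa gene. Pfkfb1, the form known from liver and muscle, had 1.52, 1.30 and 1.08 CPM at day 0, 86.2, 57.3 and 102 CPM at day 4 and 98.4, 87.4 and 80.5 CPM at day 8. It was close to its day 8 mean by day 4, with a log2 fold change of 5.98 ± 0.25 at day 4 (edgeR adjusted p = 1.7e-07) and 6.09 ± 0.25 at day 8 (edgeR adjusted p = 1.6e-07), both against day 0. Pfkfb3, the inducible form whose kinase activity far exceeds its phosphatase activity, had 39.8, 45.2 and 40.4 CPM at day 0, 994, 337 and 925 CPM at day 4 and 1275, 1219 and 667 CPM at day 8. Its lowest later library, day 4 replicate 2, was still far above day 0, and the fold change was 18.0 at day 4 and 25.2 at day 8. Pfkfb4, first known from testis, had 5.82, 5.39 and 3.67 CPM at day 0, 7.91, 8.45 and 6.77 CPM at day 4 and 8.65, 8.74 and 9.43 CPM at day 8. Its rise was small, 0.64 ± 0.19 at day 4 (edgeR adjusted p = 0.014, lost with library totals) and 0.85 ± 0.19 at day 8 (edgeR adjusted p = 0.0023) on the log2 scale. Pfkfb2, the heart form, averaged 2.35 ± 0.0641 CPM at day 0, 3.18 ± 0.339 CPM at day 4 and 3.47 ± 0.526 CPM at day 8 (SD, n = 3 each), and was called only at day 8 (0.56 ± 0.19, edgeR adjusted p = 0.024, lost in 6 of 18 alternatives). None of the 4 was called between days 4 and 8. Without day 4 replicate 2 and day 8 replicate 3, Pfkfb3 was called as higher at day 8. Counts of Pfkfb3 per 100 counts of Pfkfb4 were 685, 839.7 and 1102 at day 0, 12574, 3990.2 and 13671 at day 4 and 14735, 13949 and 7073 at day 8. The ratio was called (exact permutation test, adjusted p = 0.0429 over 12 pairs), and lost the call without day 0 replicate 1 or 2 or day 8 replicate 1 or 2.

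**Figure D2:**
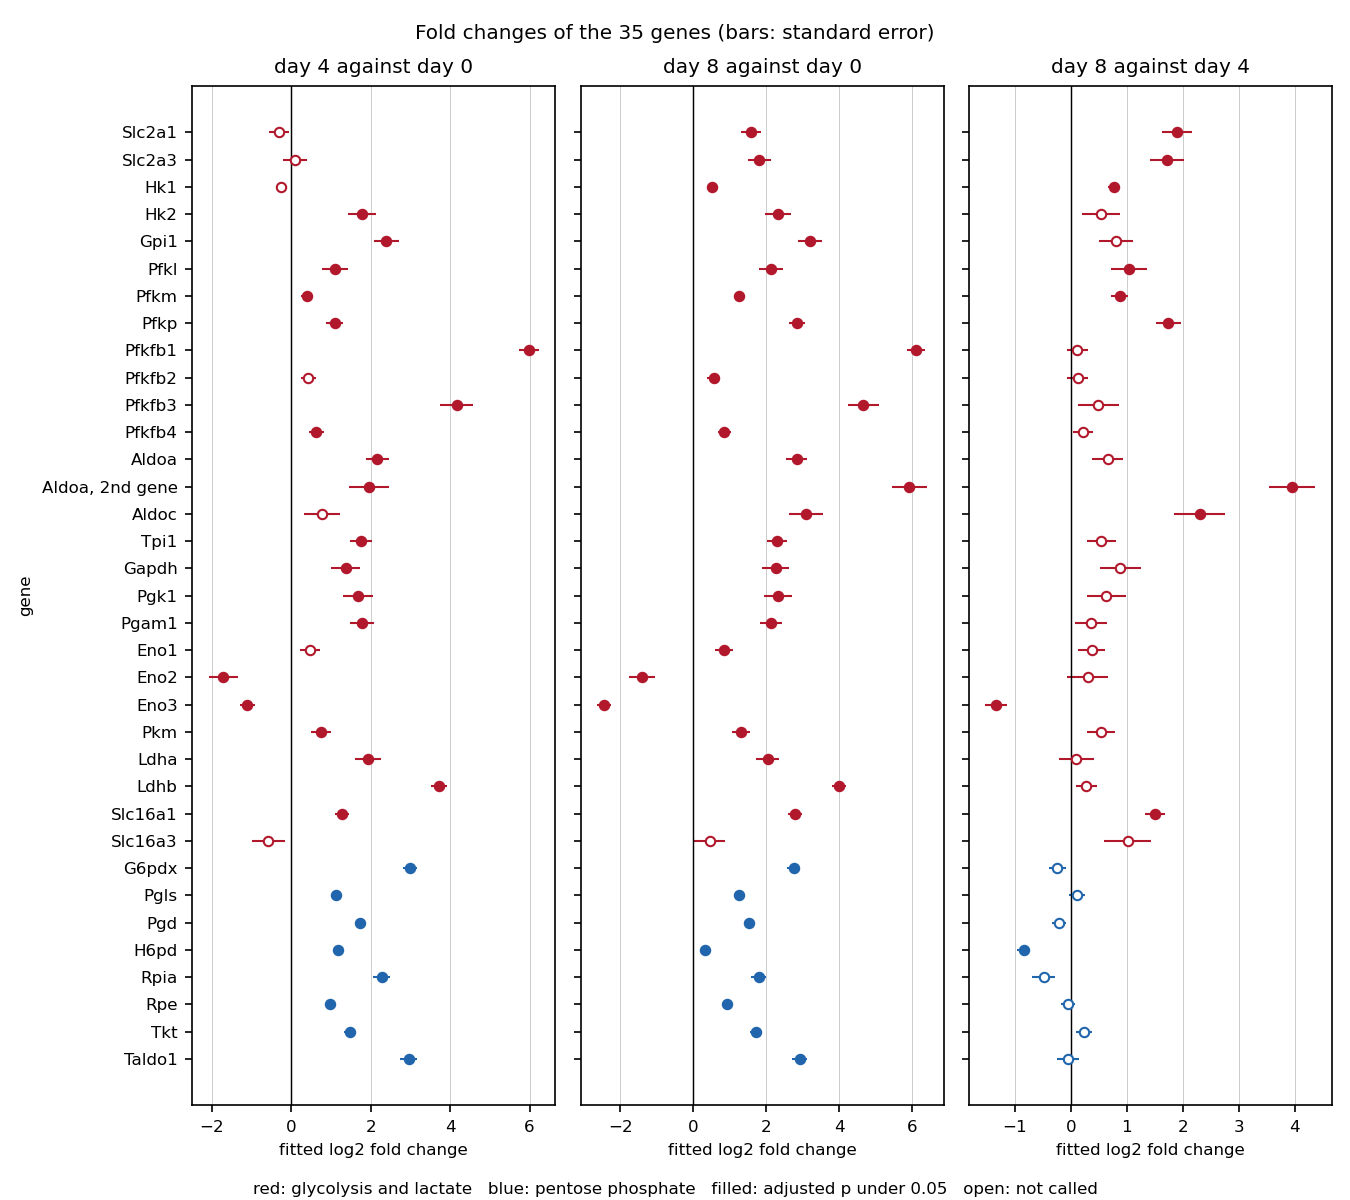
Fitted log2 fold change (points) with its standard error (bars) of each of the 35 genes at day 4 against day 0, day 8 against day 0 and day 8 against day 4, on a horizontal scale of its own in each panel. Filled points have an adjusted p under 0.05 in edgeR, red marks glycolysis and lactate and blue the pentose phosphate pathway. In the right panel the called rises are all red, and the pentose phosphate genes lie between -0.84 (H6pd, the one called as lower) and 0.23 (Tkt), with Rpia at -0.49.

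Aldolase and triose phosphate isomerase cut fructose 1,6-bisphosphate into 2 interconvertible trioses. Aldoa, the muscle and general form, had 557, 681 and 486 CPM at day 0, 3311, 1528 and 2941 CPM at day 4 and 4431, 4472 and 3386 CPM at day 8. Its libraries did not overlap between any 2 days. The log2 fold change was 2.17 ± 0.29 at day 4 (edgeR adjusted p = 1.4e-04) and 2.83 ± 0.29 at day 8 (edgeR adjusted p = 2.3e-05), both against day 0. Day 8 against day 4 gave 0.66 ± 0.28 (edgeR adjusted p = 0.093), and 0.51 (edgeR adjusted p = 0.017) without day 4 replicate 2 and day 8 replicate 3. The second gene with this symbol, ENSMUSG00000114515, had 0.152, 0.402 and 0.386 CPM at day 0, 1.74, 0.550 and 1.44 CPM at day 4 and 22.1, 23.1 and 12.7 CPM at day 8. Most of its rise came after day 4 (3.96 ± 0.41 on the log2 scale, edgeR adjusted p = 3.1e-04). The sources used here do not say how reads that fit both genes were counted, so its values are uncertain. Aldoc, known as the brain aldolase, had 7.40, 10.2 and 5.08 CPM at day 0, 21.4, 4.46 and 13.3 CPM at day 4 and 68.3, 70.0 and 54.5 CPM at day 8. Day 4 replicate 2 lay below every day 0 library while the other day 4 libraries lay above them, and day 4 against day 0 gave 0.79 ± 0.46 (edgeR adjusted p = 0.16), which was called without that library. At day 8 Aldoc stood 3.09 ± 0.48 above day 0 (edgeR adjusted p = 2.7e-04) and 2.30 ± 0.46 above day 4 (edgeR adjusted p = 0.0054).

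The 2 aldolases thus rose on different schedules. Counts of Aldoc per 100 counts of Aldoa were 1.33, 1.50 and 1.05 at day 0, 0.646, 0.292 and 0.453 at day 4 and 1.54, 1.56 and 1.61 at day 8. The ratio was lowest at day 4 and no 2 days overlapped (exact permutation test, p = 0.00357, adjusted p = 0.0107 over 12 pairs). Tpi1, the triose isomerase, followed the course of Aldoa with 231 ± 29.7 CPM at day 0, 779.8 ± 299 CPM at day 4 and 1137 ± 101 CPM at day 8 (SD, n = 3 each), and rose by 2.30 ± 0.28 at day 8 against day 0 (edgeR adjusted p = 5.5e-05).

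In the lower, ATP-yielding steps of glycolysis 5 of 7 genes rose by day 8 and the other two fell. Gapdh, the dehydrogenase that makes NADH, averaged 35.7 ± 9.05 CPM at day 0, 92.1 ± 46.4 CPM at day 4 and 170.2 ± 24.7 CPM at day 8. Pgk1, which makes the first ATP, averaged 8.96 ± 1.34, 28.8 ± 15.4 and 44.7 ± 2.27 CPM, and the mutase Pgam1 8.26 ± 1.61, 28.4 ± 11.9 and 36.4 ± 2.34 CPM at days 0, 4 and 8 (SD, n = 3 each). Their log2 fold changes at day 8 against day 0 lay between 2.14 and 2.32. In each of the 3, day 4 replicate 2 was the lowest day 4 library, and for Gapdh it lay inside the day 0 range. At day 8 against day 4 Gapdh gave 0.89 ± 0.36 (edgeR adjusted p = 0.089), and 0.59 (edgeR adjusted p = 0.0335) with that library and day 8 replicate 3 left out. A pseudogene row of Pgam1 held up to 11.1% as many counts as its parent. The Ldhb pseudogene held up to 5.5%, and no pseudogene row of the other parents looked up exceeded 0.990%. Reads of the Pgam1 and Ldhb families may therefore have been split. Only copies named after their parent were looked up, and shared reads that were dropped show in no row. The low shares therefore do not clear the other parents, Gapdh and Pgk1 among them. Pkm, the pyruvate kinase of tissues other than liver and red cells, averaged 406 ± 51.0 CPM at day 0, 687 ± 260.2 CPM at day 4 and 1002 ± 60.6 CPM at day 8 (SD, n = 3 each). Its rise at day 8 was 1.30 ± 0.25 on the log2 scale (edgeR adjusted p = 0.0012), and that at day 4, 0.76 ± 0.25 (edgeR adjusted p = 0.025), was lost in 7 of 18 alternatives. A gene-level count cannot separate the M1 and M2 splice forms of Pkm.

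The enolases, which make phosphoenolpyruvate, parted ways. Eno1, the general form, had 158, 163 and 149.7 CPM at day 0, 294, 127 and 236 CPM at day 4 and 301, 288 and 261 CPM at day 8. It was called at day 8 (0.85 ± 0.25, edgeR adjusted p = 0.011), and at day 4 only without day 4 replicate 2, which lay below day 0. Eno3, the muscle form, had 16.4, 18.0 and 14.1 CPM at day 0, 5.82, 9.22 and 7.53 CPM at day 4 and 2.79, 2.78 and 3.39 CPM at day 8. It fell at both steps with no overlap between days, by 1.10 ± 0.19 on the log2 scale at day 4 (edgeR adjusted p = 6.3e-04) and 2.44 ± 0.20 at day 8 (edgeR adjusted p = 5.0e-06), both against day 0. Eno2, the neuronal form, had 8.16, 7.09 and 7.78 CPM at day 0, 1.22, 3.96 and 1.86 CPM at day 4 and 2.74, 2.35 and 3.61 CPM at day 8. All later libraries were below day 0, by 1.70 ± 0.37 at day 4 (edgeR adjusted p = 0.0028) and 1.40 ± 0.36 at day 8 (edgeR adjusted p = 0.0060) on the log2 scale. Day 8 against day 4 gave 0.30 ± 0.37 (edgeR adjusted p = 0.57), and 0.72 (edgeR adjusted p = 0.0394) in the fit that leaves out day 4 replicate 2 and day 8 replicate 3. Counts of Eno3 per 100 counts of Eno1 averaged 10.3 ± 0.814 at day 0, 4.15 ± 2.78 at day 4 and 1.06 ± 0.203 at day 8 (SD, n = 3 each; exact permutation test, adjusted p = 0.0107, lost without day 0 replicate 1 or 2). Counts of Eno2 per 100 of Eno1 averaged 4.90 ± 0.487, 1.44 ± 1.47 and 1.04 ± 0.303 (adjusted p = 0.081, called without day 4 replicate 2).

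Summed markers of skeletal muscle and of neural cells were also lower at the later days, in each list mainly through 1 gene. The summed level of 8 skeletal muscle markers was 44.9 to 56.1 CPM at day 0, 1.89 to 5.75 CPM at day 4 and 8.46 to 10.8 CPM at day 8. Myod1, the defining muscle regulator, had 0 counts in all libraries, and nearly all of the day 0 sum was Acta1, a skeletal actin, at 44.4 to 55.7 CPM. Mb, the muscle and heart myoglobin, went the other way, with 1.34 to 3.45 CPM at day 8 and at most 0.0872 CPM before. The sum of 7 neuron and Schwann cell markers was 43.2 to 62.8 CPM, 3.30 to 9.49 CPM and 2.76 to 7.42 CPM at days 0, 4 and 8. Rbfox3, a defining neuronal marker, had 0 counts in all libraries, and nearly all of the day 0 sum was the tubulin Tubb3, at 42.0 to 62.3 CPM. Snap25, a synaptic protein gene, had 0.0837 to 0.802 CPM at day 8 and 0 counts at day 0, and the Schwann cell factor Sox10 had 0.363 to 0.728 CPM at day 8 and 0.217 to 0.497 CPM at day 0. The part of either cell type in the enolase values was not tested.

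Lactate dehydrogenase and the monocarboxylate carriers link glycolysis to lactate in the medium. Ldha, the subunit that favours lactate formation, had 268, 290.0 and 227 CPM at day 0, 1154, 473 and 1386 CPM at day 4 and 1148, 1082 and 987 CPM at day 8. It rose by 1.94 ± 0.33 at day 4 and by 2.04 ± 0.33 at day 8 on the log2 scale, both against day 0 (edgeR adjusted p = 6.4e-04 and 3.6e-04). Day 8 against day 4 gave 0.09 with a 95% interval of -0.52 to 0.71. Ldhb, the subunit that favours lactate oxidation, had 12.7, 11.0 and 12.1 CPM at day 0, 178, 115 and 178 CPM at day 4 and 208, 206 and 156 CPM at day 8. No library of a later day came near day 0, and the fold change was 13.1 at day 4 (log2 3.71 ± 0.20, edgeR adjusted p = 6.1e-07) and 15.9 at day 8 (log2 3.99 ± 0.20, edgeR adjusted p = 4.7e-07). Ldhb counts per 100 Ldha counts were 4.75, 3.81 and 5.32 at day 0, 15.4, 24.3 and 12.8 at day 4 and 18.1, 19.1 and 15.8 at day 8. The balance thus moved toward Ldhb while both subunits rose (exact permutation test, adjusted p = 0.0482 over 12 pairs). The call was lost when day 0 replicate 1 or 2, day 4 replicate 1 or 3 or day 8 replicate 1 or 2 was left out.

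The 2 lactate carriers also differed. Slc16a1, which encodes MCT1, a widely expressed lactate carrier, had 112, 111 and 137 CPM at day 0, 314, 214 and 346 CPM at day 4 and 848, 892 and 739 CPM at day 8. The days did not overlap, and the gene rose at both steps, by 1.28 ± 0.18 at day 4 against day 0 (edgeR adjusted p = 2.4e-04) and 1.50 ± 0.18 at day 8 against day 4 (edgeR adjusted p = 6.1e-04). Slc16a3, which encodes MCT4, the exporter of highly glycolytic cells, had 151, 206 and 118 CPM at day 0, 164, 38.3 and 117 CPM at day 4 and 221, 194 and 231 CPM at day 8. Its day 8 libraries overlapped day 0, and it was not called in any of the 3 comparisons (edgeR adjusted p = 0.26, 0.36 and 0.089 for day 4 against day 0, day 8 against day 0 and day 8 against day 4). The 95% interval for day 8 against day 0 was -0.36 to 1.26 on the log2 scale. It was called as higher at day 8 against day 0 in a fit of those 2 groups alone, and against day 4 without the low-count filter, with DESeq2 or without day 4 replicate 1. Slc16a1 counts per 100 Slc16a3 counts were 74.4, 54.0 and 116 at day 0, 191, 559 and 295 at day 4 and 384, 459.6 and 319.8 at day 8 (exact permutation test, adjusted p = 0.0429 over 12 pairs). That call was lost without the same single libraries as that of the Ldhb to Ldha ratio.

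**Figure D3:**
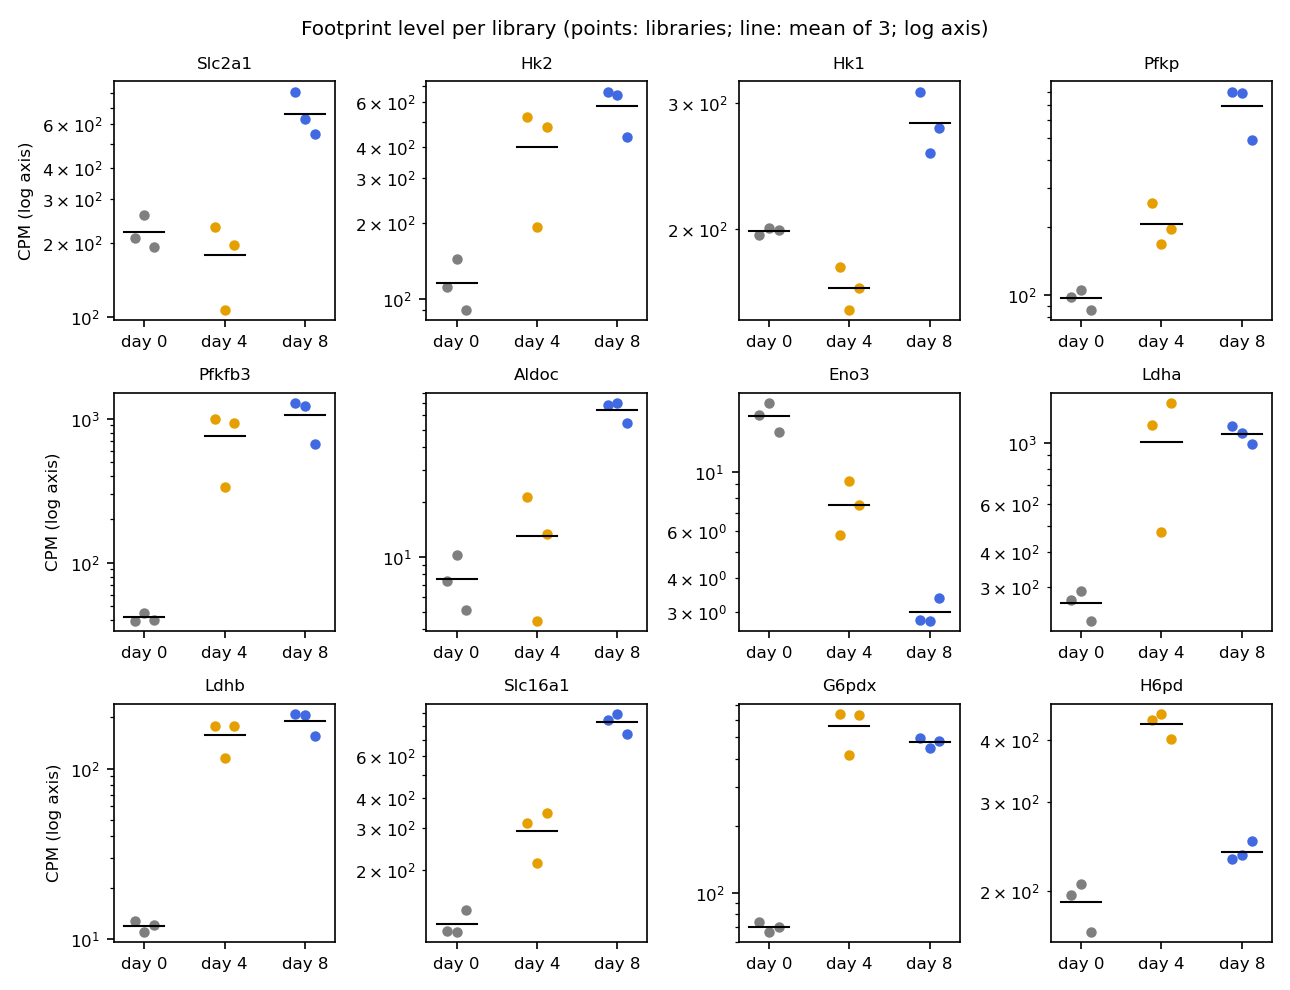
Footprint level in CPM (log axis, its own range in each panel) of 12 members in the 3 libraries of each of days 0, 4 and 8, with a line at the mean. Slc2a1, Pfkp, Aldoc and Slc16a1 climb after day 4, Ldha and Ldhb overlap between day 4 and day 8, Eno3 steps down, and H6pd is highest at day 4.

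In the pentose phosphate pathway all 8 genes were higher at day 4 and at day 8 than at day 0, beside 29.8% and 34.2% of all tested genes. None was called as higher at day 8 against day 4, beside 14.7% of all tested genes, so a count of 0 among 8 stands near the background. G6pdx, the NADPH-making entry enzyme that controls flow into the oxidative branch, had 73.8, 67.0 and 70.4 CPM at day 0, 634, 416 and 628 CPM at day 4 and 496, 446 and 479 CPM at day 8. Its log2 fold change was 2.99 ± 0.17 at day 4 (edgeR adjusted p = 8.0e-07) and 2.75 ± 0.17 at day 8 (edgeR adjusted p = 1.2e-06), both against day 0. The day 8 libraries lay within the day 4 range, and day 8 against day 4 gave -0.24 ± 0.16 (edgeR adjusted p = 0.28), called as lower without day 4 replicate 2. H6pd, the counterpart of G6pdx inside the endoplasmic reticulum, had 196, 207 and 166 CPM at day 0, 438, 449 and 402 CPM at day 4 and 231, 236 and 251 CPM at day 8. It peaked at day 4 with no overlap between days, at 1.18 ± 0.12 above day 0 (edgeR adjusted p = 2.1e-05), and fell by 0.84 ± 0.11 at day 8 against day 4 (edgeR adjusted p = 9.8e-04). What was left of its rise at day 8 against day 0 (0.34 ± 0.11, edgeR adjusted p = 0.024) was lost in 5 of 18 alternatives. Counts of G6pdx per 100 counts of H6pd were 37.6, 32.4 and 42.4 at day 0, 145, 92.6 and 156 at day 4 and 215, 189 and 191 at day 8, with no overlap between days (exact permutation test, p = 0.00357, adjusted p = 0.0107 over 12 pairs).

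The other oxidative enzymes had smaller fitted fold changes than G6pdx. The lactonase Pgls averaged 70.1 ± 2.98 CPM at day 0, 154 ± 29.0 CPM at day 4 and 167 ± 15.6 CPM at day 8. Pgd, which makes the second NADPH, averaged 258 ± 3.84, 855 ± 66.3 and 739 ± 70.6 CPM at days 0, 4 and 8 (SD, n = 3 each). Both rose by day 4 and were not called thereafter (edgeR adjusted p = 0.59 and 0.20 at day 8 against day 4). In the non-oxidative branch Taldo1, the transaldolase, changed most, with 90.7, 96.3 and 89.8 CPM at day 0, 825, 474 and 852 CPM at day 4 and 702, 675 and 706 CPM at day 8. Its log2 fold change was 2.96 ± 0.21 at day 4 and 2.91 ± 0.21 at day 8 against day 0 (edgeR adjusted p = 2.7e-06 and 2.6e-06). Day 8 against day 4 gave -0.05 with a 95% interval of -0.43 to 0.34. Rpia, the isomerase that makes ribose 5-phosphate, averaged 8.77 ± 2.03, 42.8 ± 9.37 and 30.5 ± 3.52 CPM, and the epimerase Rpe 42.6 ± 1.75, 84.7 ± 12.1 and 81.5 ± 7.58 CPM at days 0, 4 and 8 (SD, n = 3 each). Transketolase, Tkt, averaged 377 ± 24.8, 1053 ± 160.1 and 1235 ± 108 CPM, the one gene of the branch with a higher mean at day 8 than at day 4, a step that was not called (0.23 ± 0.14, edgeR adjusted p = 0.25). Without day 4 replicate 2, Rpia and Taldo1 were called as lower at day 8 than at day 4.

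Set side by side, the pathways had different medians over the days. The 8 pentose phosphate genes had a median log2 fold change of 1.61 at day 4 and 1.62 at day 8 against day 0, and of -0.13 at day 8 against day 4 (0 higher, 1 lower). The 27 glycolysis and lactate genes had medians of 1.10 (18 higher, 2 lower), 2.14 (24 higher, 2 lower) and 0.63 (9 higher, 1 lower) in the same 3 comparisons. Of all tested genes, these comparisons called 29.8%, 34.2% and 14.7% as higher and 28.4%, 33.5% and 17.1% as lower. Without day 4 replicate 2 and day 8 replicate 3, the step from day 4 to day 8 had other medians. They were -0.22 (0 higher, 4 lower) for the pentose phosphate genes and 0.50 (14 higher, 1 lower) for the glycolysis and lactate genes. That step then called 16.6% of all tested genes as higher and 19.9% as lower. Against day 0 that fit gave 20 higher and 2 lower glycolysis and lactate genes at day 4, and 24 and 2 at day 8. All 8 pentose phosphate genes were higher at both days in it. Of all tested genes it called 33.3% as higher at day 4 and 35.6% at day 8. As a share of all counts, the pentose phosphate genes held 0.116%, 0.121% and 0.108% at day 0, 0.381%, 0.313% and 0.394% at day 4 and 0.385%, 0.391% and 0.355% at day 8. The glycolysis and lactate genes held 0.338%, 0.385% and 0.292% at day 0, 1.14%, 0.514% and 1.04% at day 4 and 1.80%, 1.74% and 1.41% at day 8. The day 4 and day 8 libraries overlapped for the first share and not for the second. Day 4 replicate 2 stood on the day 0 side of its group in 22 of 27 glycolysis and lactate genes. It did so in 6 of 8 pentose phosphate genes, beside 64.1% of all tested genes. Day 8 replicate 3 stood on the day 0 side of its group in 23 of 27 glycolysis and lactate genes. It did so in 4 of 8 pentose phosphate genes, beside 53.7% of all tested genes. It had the highest preadipocyte (1010 CPM) and the lowest beige or brown fat marker sum (801 CPM) of day 8. Day 4 replicate 2 had the highest preadipocyte and the lowest adipocyte marker sum of day 4, and the part of these marker levels in the day 4 and day 8 values was not tested. No p is given for the contrast between the pathways, whose members were chosen with results known.

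**Figure D4:**
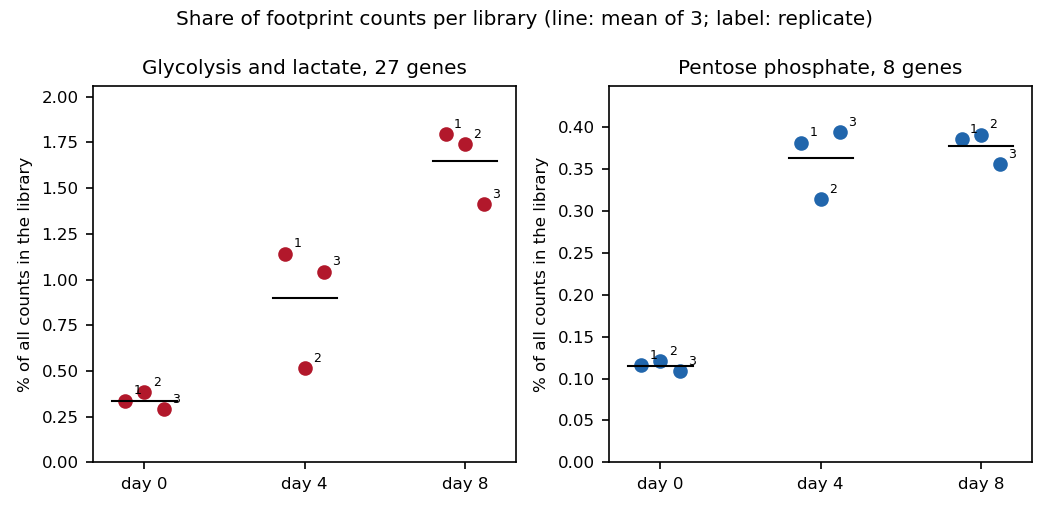
Share of all counts of a library, in percent, held by the 27 glycolysis and lactate genes (left) and the 8 pentose phosphate genes (right) at days 0, 4 and 8, with 1 point per library (numbers are replicates), a line at the mean of 3 and each axis starting at 0. The left panel climbs from day 4 to day 8, where the right panel overlaps between these days, and day 4 replicate 2 is the lowest day 4 library in both.

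By course over time, 20 of 35 genes were higher at day 4 and not called after that, 13 of them in glycolysis and all pentose phosphate genes except H6pd, a course taken by 19.3% of all tested genes. Pfkl, Pfkm, Pfkp, the second Aldoa gene and Slc16a1 rose at both steps (4.77% of all genes). Slc2a1, Slc2a3, Hk1 and Aldoc were not called at day 4 and rose after it (5.87%). Of the remaining genes, H6pd rose and fell back, Eno3 fell at both steps, Eno2 fell by day 4 and was not called afterwards, and Pfkfb2, Eno1 and Slc16a3 were not called at either step. With day 4 replicate 2 and day 8 replicate 3 left out, these courses held other numbers of genes. Then 14 genes were higher at day 4 and not called afterwards (18.7% of all tested genes), and 10 rose at both steps (6.76%), which were Gpi1, Pfkl, Pfkm, Pfkp, Pfkfb3, both Aldoa genes, Aldoc, Gapdh and Slc16a1. The pentose phosphate genes G6pdx, H6pd, Rpia and Taldo1 rose and then fell (7.89%). Slc2a1, Slc2a3 and Hk1 rose only at the later step, Eno2 fell and then rose, Eno3 fell at both steps, and Pfkfb2 and Slc16a3 were not called at either.

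**Figure D5:**
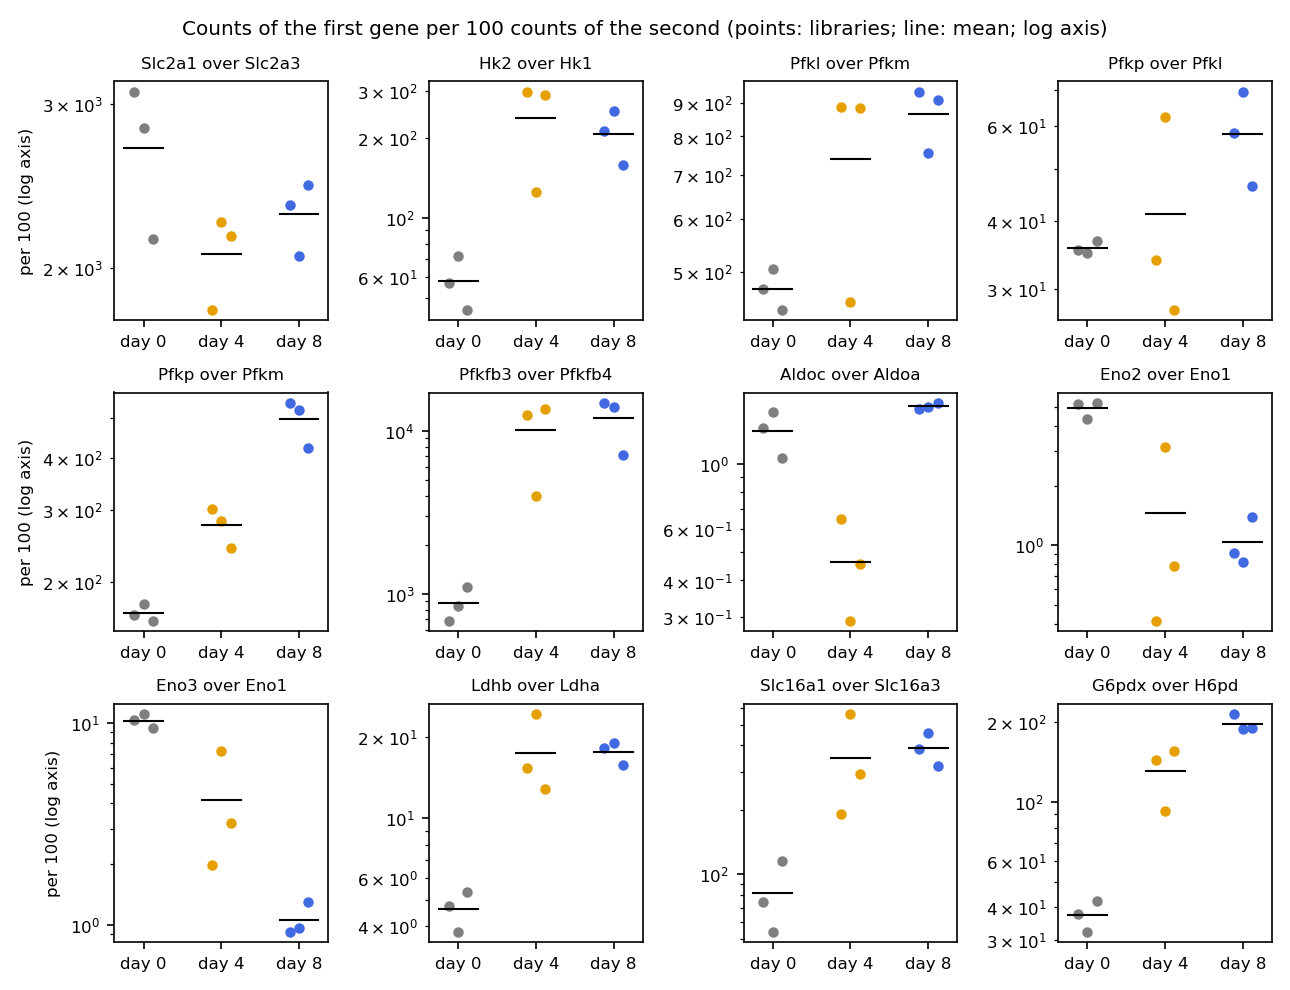
Counts of the first gene per 100 counts of the second, for 12 pairs of genes of the same step, in the 3 libraries of days 0, 4 and 8 (points, log axis with its own range in each panel, line at the mean). Aldoc over Aldoa dips at day 4 and is highest at day 8, Pfkp over Pfkm and G6pdx over H6pd step up at each day, and Hk2 over Hk1 and Ldhb over Ldha are raised at day 4 and day 8 alike.

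Beyond the members, 67 further genes of glucose metabolism were listed, of which 55 had enough counts to be tested. At day 8 against day 0, 34 rose and 11 fell (median log2 fold change 1.26), beside 34.2% and 33.5% of all tested genes. At day 4 against day 0, 36 rose and 9 fell (1.12), beside 29.8% and 28.4%. At day 8 against day 4, 10 rose and 10 fell (0.08), close to the 14.7% and 17.1% of all tested genes. Among the 17 genes at the exits from glycolysis 12 rose and 4 fell at day 8 against day 0. The 4 listed genes with the smallest adjusted p in that comparison were Gpd1, Mlxipl, Pdk4 and Pdhb. Gpd1, which makes the glycerol 3-phosphate used for triglycerides, averaged 14.2 ± 1.66 CPM at day 0, 4667 ± 1136 CPM at day 4 and 2880 ± 590 CPM at day 8 (SD, n = 3 each), for a log2 fold change of 7.66 ± 0.29 at day 8 against day 0 (edgeR adjusted p = 1.2e-07). Mlxipl, which encodes the glucose-sensing factor ChREBP, had 0.213, 0.217 and 0.304 CPM at day 0, 64.7, 36.5 and 58.0 CPM at day 4 and 45.6, 55.0 and 31.1 CPM at day 8. Pdk4, a kinase that switches off pyruvate dehydrogenase, averaged 16.0 ± 1.84 CPM at day 0, 191 ± 24.1 CPM at day 4 and 1005 ± 370.3 CPM at day 8. Pdhb, a subunit of pyruvate dehydrogenase itself, averaged 32.4 ± 1.40, 618 ± 205 and 761 ± 48.6 CPM at days 0, 4 and 8, so the enzyme's subunit and its inhibitor both rose. Of genes chosen after their values were seen, Slc2a4, the insulin-responsive carrier GLUT4, averaged 1.63 ± 0.347 CPM at day 0, 335 ± 177 CPM at day 4 and 375 ± 81.0 CPM at day 8 (SD, n = 3 each). Hif1a, which encodes the hypoxia-induced factor that binds ACGTG, fell by 2.02 ± 0.22 at day 4 and by 2.25 ± 0.22 at day 8 against day 0 on the log2 scale (edgeR adjusted p = 4.5e-05 and 1.9e-05). The other listed factors did not fall against day 0. Myc gave 0.68 ± 0.16 at day 4 and -0.16 ± 0.16 at day 8 (edgeR adjusted p = 0.0047 and 0.39). Mlx gave 1.34 ± 0.13 and 0.74 ± 0.13 (edgeR adjusted p = 2.3e-05 and 7.1e-04).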

How the data were processed

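Ribosome footprints of 9 libraries were analysed. The deposited values are raw counts per Ensembl gene, whole numbers and not normalised. Per the submitters' processing notes, the authors trimmed reads with cutadapt, aligned them to GRCm39 with HISAT2 and counted genes with featureCounts. Tool versions, strand use, the feature counted and the treatment of multi-mapping reads were not given in the sources used here, so reads shared by a gene and a near copy may have been dropped or split.

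From the counts, filterByExpr with a minimum count of 10 kept 14714 genes, which hold at least 99.95% of each library. After TMM scaling all 9 libraries entered 1 quasi-likelihood fit of edgeR 4.0.16 (R 4.3.3), whose model held the group and nothing else. Calls are genes with a Benjamini-Hochberg adjusted p under 0.05 over all tested genes. CPM are means ± SD of 3 libraries, fold changes are fitted, and SE are derived from the F statistic. The 95% intervals apply a normal quantile to that SE, so with 9 libraries they may be too narrow. Isozyme ratios are log2 of counts plus 0.5 within a library, and each was tested by exact permutation of the libraries among the 3 groups (sum of squares between groups, all 1680 arrangements). Replicate pairs of each group differed by more than sampling noise (chi-square per gene 14.7 to 243), so all libraries counted separately. Same-numbered libraries had correlations of deviations from group means of -0.28 to 0.26, and numbers were not taken to pair samples. Between day 0 and day 8 these correlations were 0.08 to 0.16 for same-numbered libraries and -0.12 to -0.03 for the others. Pairing by number is therefore not excluded.

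The members, isozyme pairs and lists were chosen with earlier results of these data known. Every member is named, with all libraries given for members of isozyme pairs and for the largest day 8 change of each role. Of the further pathway genes, values are given for the 4 smallest adjusted p at day 8 against day 0. Slc2a4 and Hif1a were added after their values were seen, and Myc and Mlx as the other listed factors. Promoters are RefSeq's on GRCm38.p6, matched by symbol for 33 of 34 symbols (all but Slc2a3). Alternatives changed the scaling, the filter, the test (DESeq2 1.42.0, voom in limma 3.58.1), the libraries in the fit, a replicate block and the count added in ratios. The scripts were tested on simulated data.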

Additional observations from a re-analysis of the deposited data

How the results depend on the processing

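The members called kept to within 1.5 times their number under every scaling, filter and test tried and in every fit that left out 1 library. Leaving out 1 library at a time gave 25 to 30 called members at day 4 against day 0, 32 to 34 at day 8 against day 0 and 10 to 16 at day 8 against day 4, beside 28, 34 and 11 with all libraries. Without day 4 replicate 2 and day 8 replicate 3 together, the last count was 19. The replicate number as a block gave 26, 34 and 12 called members. Whether the numbers pair the libraries was not settled. With that block no isozyme ratio was called (0 of 12, beside 8). Its 216 arrangements allow no p below 0.0278, but that floor alone does not prevent calls, which depend on how many pairs reach it. In this permutation test Pfkp to Pfkm, Aldoc to Aldoa and G6pdx to H6pd had an adjusted p of 0.0833. Leaving out 1 library at a time gave 3 to 11 called ratios: 3 without day 0 replicate 1 or 2, 4 without day 8 replicate 1 or 2, 5 without day 4 replicate 1 or 3, 7 without day 8 replicate 3, 8 without day 0 replicate 3 and 11 without day 4 replicate 2. Over all tested genes, day 8 against day 4 called 4676 genes with all libraries and 2706 to 4899 with 1 left out. Library totals moved the median of all genes by -0.15 at day 4 against day 0 and by 0.14 at day 8 against day 4, where 65.9% of calls over all genes were then higher, beside 46.2% with TMM; members then numbered 23 higher and 3 lower, and 11 higher and 2 lower. Upper-quartile scaling moved that median by -0.13 at day 4 and -0.11 at day 8, both against day 0. No called change of a member and no ratio reversed its sign under any alternative. Depth limits Pfkfb2, Eno2 and the second Aldoa gene most, which held the fewest counts of the members.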
